A study of Mus musculus with 16 samples.

Results

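The genes described here are 10 that mark lipid-associated macrophages: Trem2, Itgax, Cd9, Gpnmb, Spp1, Mmp12, Lgals3, Atp6v0d2, Ctsk and Fabp5. They were chosen by symbol and matched to the Ensembl gene IDs of 2 expression tables, of 30325 genes for gonadal fat and 30946 for subcutaneous fat. All 10 were found in both tables, and all 10 passed the filter on low values in each. The samples came from female Lcn2-null mice on the C57BL/6J background (allele Lcn2tm1Aade), so mice of both groups carry the null allele of the gene of lipocalin-2, a secreted protein that binds siderophores. At 8 weeks of age they were injected in a vein with an AAV8 vector that carried LCN2 or, in the comparison group, green fluorescent protein (GFP). The adiponectin promoter, active in fat cells, drove both constructs, and a target sequence for microRNA122 was included to limit expression in liver. All mice ate a HF/HS diet until 16 weeks of age. RNA sequencing covered 4 LCN2 and 4 GFP samples of each depot, 16 samples in all.

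Lipid-associated macrophages are cells of obese adipose tissue that gather around dying fat cells and take up their lipid. The receptor TREM2 senses lipids and signals through the adaptor TYROBP, and macrophages without it do not build up the full program. The program joins surface receptors, secreted matrix proteins and enzymes with lysosomal genes that break down what was taken up. Most of these genes are used by other cells as well: Itgax by dendritic cells, Cd9 and Fabp5 by fat and endothelial cells, Ctsk by fibroblasts and osteoclasts, and Lgals3 by epithelial cells. The tissue was sequenced whole, so more cells of a type and more RNA per cell cannot be told apart.

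None of the 10 genes passed the test over all genes in either depot, where 0.102% of gonadal and 0.0% of subcutaneous genes passed. Mmp12, the macrophage elastase gene, had the largest difference of the 10 in both: on the log2 scale it was 1.57 ± 0.68 (SE) higher in LCN2 than in GFP gonadal samples, and 1.29 ± 0.30 (SE) higher in subcutaneous samples. In subcutaneous fat the 4 LCN2 samples lay above the 4 GFP samples for Mmp12 and for Atp6v0d2, a subunit gene of the lysosomal proton pump. They did so for 3.81% of all genes tested in that depot. In gonadal fat Itgax, the gene of the integrin CD11c, followed Mmp12 from sample to sample. Trem2 itself differed by 0.09 ± 0.33 (SE) in gonadal and by 0.35 ± 0.14 (SE) in subcutaneous fat.

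On GRCm38 Mmp12 (ENSMUSG00000049723) lies on chromosome 9 from 7344381 to 7369499, Itgax (ENSMUSG00000030789) on chromosome 7 from 128129547 to 128150657, and Trem2 (ENSMUSG00000023992) on chromosome 17 from 48346401 to 48354147, all on the plus strand. Gpnmb (ENSMUSG00000029816) lies on chromosome 6 from 49036546 to 49070929 on the plus strand, and Atp6v0d2 (ENSMUSG00000028238) on chromosome 4 from 19876841 to 19922605 on the minus strand. All 10 genes are protein-coding.

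The stretches around the transcription starts of 4 of these genes are shown because they form the 2 pairs with the highest Pearson r over the gonadal samples (Mmp12 with Itgax, and Trem2 with Gpnmb), of which the first passed. They come from RefSeq on GRCm38.p6, run from 250 bases before a start to 50 bases from it on, and all lie on the plus strand. The windows are chr9:7344147-7344446 and chr9:7347124-7347423 for 2 annotated starts of Mmp12, chr7:128129300-128129599 for Itgax, chr17:48346151-48346450 for Trem2 and chr6:49036268-49036567 for Gpnmb. Capitals mark matches to the motifs searched.
Mmp12 start 1: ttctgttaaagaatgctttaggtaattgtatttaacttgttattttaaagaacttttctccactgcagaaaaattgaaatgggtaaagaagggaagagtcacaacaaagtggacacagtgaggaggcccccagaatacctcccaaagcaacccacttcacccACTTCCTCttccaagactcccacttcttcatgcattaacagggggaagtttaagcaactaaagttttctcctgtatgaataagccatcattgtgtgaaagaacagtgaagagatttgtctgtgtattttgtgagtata
Mmp12 start 2: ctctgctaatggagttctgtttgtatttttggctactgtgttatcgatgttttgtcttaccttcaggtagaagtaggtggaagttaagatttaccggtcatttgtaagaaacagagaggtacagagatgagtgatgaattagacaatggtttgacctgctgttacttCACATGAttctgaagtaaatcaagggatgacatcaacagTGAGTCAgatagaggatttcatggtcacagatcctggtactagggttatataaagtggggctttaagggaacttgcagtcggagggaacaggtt
Itgax: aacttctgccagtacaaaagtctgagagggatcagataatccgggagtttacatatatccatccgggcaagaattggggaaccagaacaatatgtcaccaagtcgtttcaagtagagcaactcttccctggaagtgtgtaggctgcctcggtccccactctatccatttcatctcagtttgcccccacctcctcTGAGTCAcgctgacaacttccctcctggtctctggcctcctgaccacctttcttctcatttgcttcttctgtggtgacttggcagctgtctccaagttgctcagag
Trem2: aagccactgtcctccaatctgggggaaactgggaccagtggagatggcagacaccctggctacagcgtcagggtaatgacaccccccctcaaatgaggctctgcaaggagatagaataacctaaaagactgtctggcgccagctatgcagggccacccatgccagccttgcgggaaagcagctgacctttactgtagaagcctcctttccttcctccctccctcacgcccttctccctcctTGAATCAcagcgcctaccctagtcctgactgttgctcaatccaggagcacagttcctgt
Gpnmb: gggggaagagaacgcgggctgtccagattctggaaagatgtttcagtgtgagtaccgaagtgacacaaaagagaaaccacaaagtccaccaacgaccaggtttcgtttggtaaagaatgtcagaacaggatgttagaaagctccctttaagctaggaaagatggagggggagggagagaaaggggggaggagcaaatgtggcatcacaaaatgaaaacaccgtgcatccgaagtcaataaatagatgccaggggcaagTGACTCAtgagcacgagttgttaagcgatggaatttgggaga

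Of the 10 genes, 8 had such a window in the table used, in 10 windows, while Atp6v0d2 and Fabp5 had none. The motifs were searched on both strands. The AP-1 site TGANTCA occurred in 4 of the 10 windows, from 4 of the 8 genes. It was at position -44 of the second Mmp12 start, -56 of Itgax, -9 of Trem2 and 8 of Gpnmb, counted from 0 at the start. It is held by 7.81% of all 32851 windows. The core PU.1 site of macrophage genes, GAGGAAGT, was present at -88 of the first Mmp12 start, on the reverse strand, and at -113 of 1 Spp1 start, with a background of 3.2%. The M-box TCATGTG, a site of the MITF family, was found at -83 of the second Mmp12 start, on the reverse strand, with a background of 3.77%. The motif TCACGTG, the core of the CLEAR element of lysosomal genes, was in none of these windows, against 3.77% of all windows. No motif lies inside another of those searched. A match describes the letters of the window and not a bound site.

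Reads assigned to genes, as recovered from the normalized counts, numbered between 35173260 and 42890102 in the gonadal libraries. No depth can be given for subcutaneous fat. Lcn2 was above every GFP sample in every LCN2 sample of both depots, at normalized counts of 186 to 522 against 62.1 to 103 in gonadal fat and rlog values of 8.49 to 9.82 against 7.76 to 8.37 in subcutaneous fat. Reads assigned to Lcn2 were thus present in every GFP sample of these mice labelled null, and which part of the gene they come from was not tested. Adipocyte markers such as Adipoq were abundant in every sample, with a summed normalized count of the 10 markers of at least 516922 in gonadal fat. Some libraries stood apart. In gonadal fat, LCN2 replicate 4 had a summed normalized count of 63586 over 10 skeletal muscle genes, against at most 6968 in the other 7 samples. LCN2 replicate 2 had 46248 over 8 hepatocyte genes, and GFP replicate 4 had the highest sum over lymphocyte genes (2776) and the lowest over adipocyte markers. In subcutaneous fat GFP replicates 1 and 2 held lymph node transcripts, with a mean rlog of 10.49 and 9.67 over 12 genes, against 8.00 in LCN2 replicate 4 and 5.94 to 6.37 in the other 5 samples. Fits without the lymph node libraries left out GFP replicates 1 and 2 and kept LCN2 replicate 4.

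The mean level per kilobase of annotated exon ordered the genes in gonadal fat. This scale divides the normalized count by the length of all annotated exons, which understates genes with long, little-used exons. Lgals3, which encodes the lectin galectin-3, had 1704 ± 464 normalized counts per kilobase in LCN2 and 1609.7 ± 262 in GFP samples (SD, n = 4 each), and Fabp5, a fatty acid binding protein gene, had 1598 ± 343 in LCN2 and 1529.7 ± 372 in GFP samples. Those 2 genes lay within each other's spread. Cd9, at 442 ± 103 in LCN2 and 423 ± 196 in GFP samples, and Ctsk, at 389 ± 68.5 in LCN2 and 349 ± 112 in GFP samples, came next and also lay within each other's spread. Gpnmb followed with 119 ± 64.3 in LCN2 and 124 ± 85.2 in GFP samples. Itgax, Mmp12, Atp6v0d2 and Trem2 lay between 32.5 and 88.5 in LCN2 samples and between 30.7 and 45.3 in GFP samples. Their spreads overlapped, except that Itgax (88.5 ± 22.2) and Trem2 (32.5 ± 11.5) stood apart in LCN2 samples. Spp1, the osteopontin gene, was lowest with 11.0 ± 7.38 in LCN2 and 10.1 ± 6.40 in GFP samples.

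Values in gonadal fat are normalized counts: reads per gene divided by a size factor per sample. In LCN2 replicates 1 to 4, Trem2 had 179.5, 231, 99.8 and 133, and in GFP replicates 1 to 4 it had 114, 145, 105 and 249. The highest of the 8 samples was a GFP sample and the lowest an LCN2 sample, so the groups overlapped throughout. The log2 difference of LCN2 minus GFP, on log2(normalized count + 1), was 0.09 ± 0.33 (SE), with a 95% interval from -0.65 to 0.83 (limma, adjusted p = 0.937). Without GFP replicate 4 it was 0.35 ± 0.28. Gpnmb encodes a glycoprotein of lysosomes and the cell surface that lipid-laden macrophages make in quantity. It had 636, 1242, 269 and 954 in LCN2 replicates 1 to 4, against 587, 687, 352 and 1616 in GFP replicates 1 to 4. The same GFP replicate 4 was highest and LCN2 replicate 3 lowest for both genes, and the log2 difference of Gpnmb was -0.04 ± 0.55, with an interval from -1.29 to 1.20 (limma, adjusted p = 0.983).

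Itgax had 379, 582, 345 and 395 in LCN2 replicates 1 to 4, against 195, 86.5, 226 and 362 in GFP replicates 1 to 4. In 3 of the 4 LCN2 samples it lay above the highest GFP sample. The log2 difference was 1.11 ± 0.38 (SE), with an interval from 0.24 to 1.98, and it did not pass (limma, adjusted p = 0.234, unadjusted p = 0.0184). Without GFP replicate 2, the lowest sample, the difference was 0.72 ± 0.25, and without the library highest in muscle markers of each group (LCN2 replicate 4 and GFP replicate 2) it was 0.75 ± 0.29. Cd9 encodes a tetraspanin of the cell surface. It had 829, 1049, 641 and 1094 in LCN2 replicates 1 to 4, against 869, 534, 629 and 1425 in GFP replicates 1 to 4. The groups overlapped, the log2 difference was 0.14 ± 0.30, and its interval ran from -0.54 to 0.82 (limma, adjusted p = 0.884).

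Mmp12 spread further over the samples than any other of the 10 genes, the highest sample being 18.7 times the lowest. It had 496, 838, 271 and 346 in LCN2 replicates 1 to 4, against 149, 44.8, 129 and 566 in GFP replicates 1 to 4. All LCN2 samples exceeded 3 GFP samples, while GFP replicate 4 was second only to LCN2 replicate 2. The log2 difference was 1.57 ± 0.68 (SE), with an interval from 0.03 to 3.11, and it did not pass (limma, adjusted p = 0.328, unadjusted p = 0.0468). It was 2.21 ± 0.49 without GFP replicate 4 (limma, adjusted p = 0.0932) and 1.00 ± 0.57 without GFP replicate 2 (limma, adjusted p = 0.596), with adjusted p from 0.0932 to 0.646 over all alternatives. On recovered reads it was 1.13 ± 0.78 by DESeq2 and 1.10 by edgeR. Mmp12 shares 2.17% of its exonic bases with Mmp1b on the other strand.

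Spp1 was close to the filter. It had 8.00, 35.3, 11.3 and 18.1 in LCN2 replicates 1 to 4, against 17.9, 6.10, 11.7 and 30.7 in GFP replicates 1 to 4, with a log2 difference of 0.13 ± 0.56 and an interval from -1.14 to 1.39 (limma, adjusted p = 0.947). Neither group was set apart, and 18.8% of its exonic bases are shared with Gm42793 on the same strand. Lgals3 had 2456, 4246, 3477 and 2484 in LCN2 replicates 1 to 4, against 2686, 2487, 3532 and 3258 in GFP replicates 1 to 4, and a log2 difference of 0.06 ± 0.20, with an interval from -0.38 to 0.50 (limma, adjusted p = 0.930). LCN2 replicate 2 was the highest sample and LCN2 replicate 1 the lowest.

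Atp6v0d2 had 148, 279, 71.4 and 71.2 in LCN2 replicates 1 to 4, against 71.7, 47.8, 42.4 and 174 in GFP replicates 1 to 4. LCN2 replicates 1 and 2 and GFP replicate 4 were high. The log2 difference was 0.75 ± 0.55, with an interval from -0.49 to 2.00 (limma, adjusted p = 0.578). It was 0.35 ± 0.50 without LCN2 replicate 2 and 1.18 ± 0.48 without GFP replicate 4. Ctsk encodes cathepsin K, a collagen-cleaving lysosomal protease. It had 504, 669, 494 and 687 in LCN2 replicates 1 to 4, against 387, 528, 428 and 764 in GFP replicates 1 to 4, with a log2 difference of 0.19 ± 0.22 and an interval from -0.30 to 0.68 (limma, adjusted p = 0.742). Without GFP replicate 4 the difference of Ctsk was 0.39 ± 0.16, and without GFP replicate 1 it was 0.06 ± 0.22. Fabp5 had 4872, 4920.5, 7481 and 5527 in LCN2 replicates 1 to 4, against 5842, 3784, 6965 and 5235 in GFP replicates 1 to 4. Its log2 difference was 0.07 ± 0.20, with an interval from -0.39 to 0.53 (limma, adjusted p = 0.910). Both genes overlapped between the groups, and replicate 3 was highest within each group for Fabp5.

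**Figure D1:**
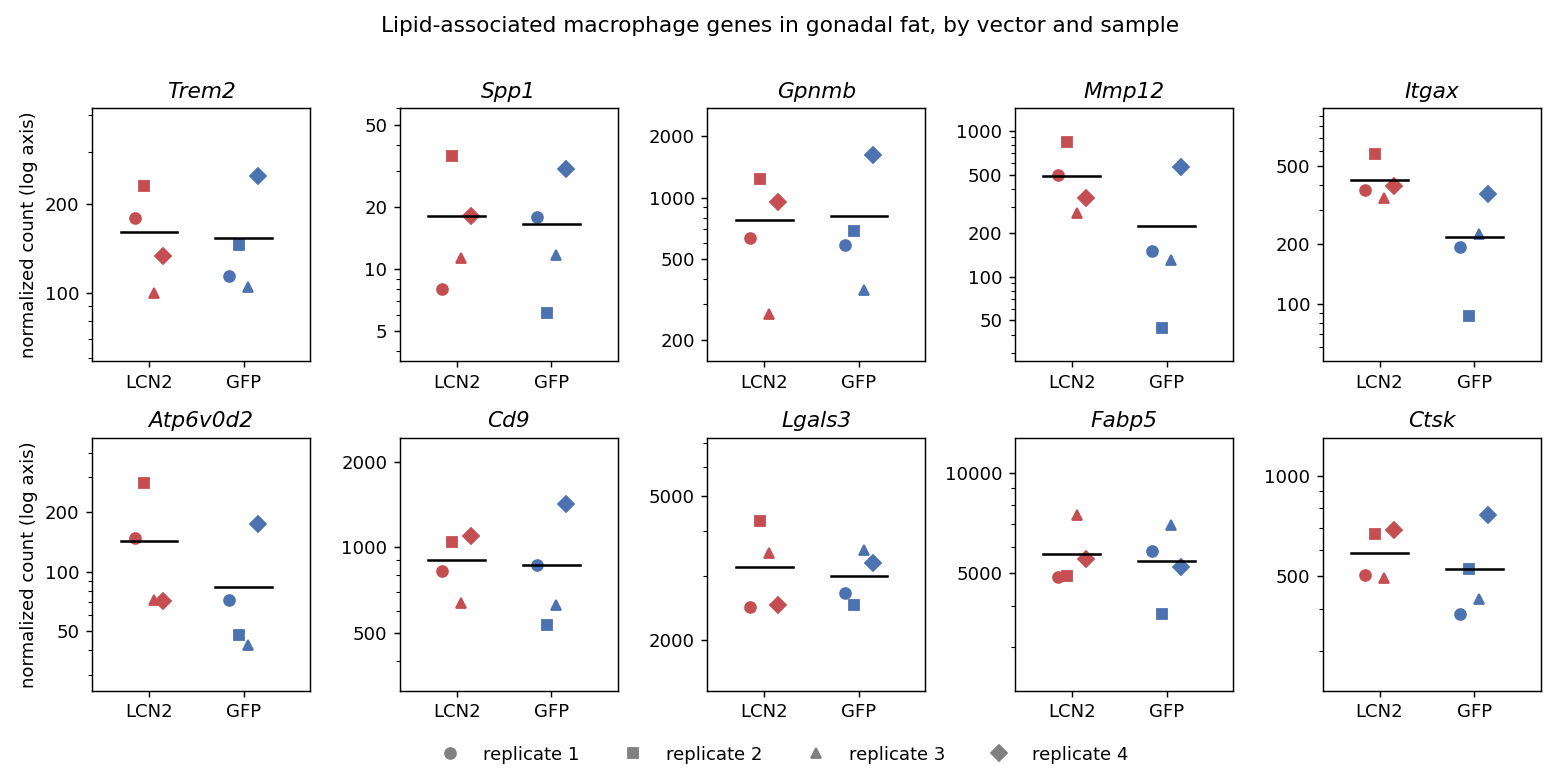
Normalized count (log axis) of each of the 10 genes in gonadal fat, in 4 LCN2 samples (red, left) and 4 GFP samples (blue, right), with a symbol per replicate number and a line at the arithmetic mean. Itgax has 3 LCN2 samples above all GFP samples, and GFP replicate 4 is among the highest samples for Trem2, Gpnmb, Mmp12 and Atp6v0d2.

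Counted together, 0 of the 10 genes were called in gonadal fat, where 0.102% of the 19536 genes tested were called in either direction and 0.041% were called higher with LCN2. At an unadjusted p under 0.05 there were 2 of the 10 (Mmp12 and Itgax), against 14.8% of all genes. DESeq2 and edgeR on recovered reads also called 0 of the 10, against 4.29% and 0.0358% of all genes, with 1 at an unadjusted p under 0.05 in each. The difference was above 0 for 9 of the 10 genes, with a median of 0.13, and for 52.0% of all genes, with a median of 0.01. For none of the 10 did all LCN2 samples lie above all GFP samples, as they did for 4.4% of all genes, or below them, as for 4.71%. LCN2 replicate 2 was the highest of the 8 samples for 5 of the 10 genes and GFP replicate 4 for 4. GFP replicate 2 was the lowest for 5.

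General macrophage markers did not separate the groups in gonadal fat. Summed over 18 markers, the normalized count was between 28909 and 49238 in LCN2 and between 32758 and 46763 in GFP samples, and 12 of 18 had a difference above 0 with a median of 0.08. LCN2 replicate 2 and GFP replicate 4, which were highest for 9 of the 10 genes, had marker sums of 46244 and 46763, and LCN2 replicate 1 had 49238. These were the 3 highest of the 8 sums, the other 5 lying between 28909 and 38993, and the part of macrophage content in the values of those samples was not tested. Set against the mean of the 18 markers on the log2 scale, Mmp12 was at -1.50, -0.58, -1.96 and -1.18 in LCN2 replicates 1 to 4, and at -2.80, -4.23, -2.80 and -1.11 in GFP replicates 1 to 4. So 3 GFP samples lay below all LCN2 samples, and the group means differed by 1.43. The same difference was 0.97 for Itgax, 0.61 for Atp6v0d2, -0.05 for Trem2 and -0.18 for Gpnmb. With the marker mean as a covariate in the fit, Mmp12 had 1.21 ± 0.55 and Itgax 0.96 ± 0.36, and none of the 10 was called.

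Dendritic cells also make Itgax, and their markers had a difference above 0 in 10 of 11 in gonadal fat, with a median of 0.41. Their summed normalized count was between 19107 and 26542 in LCN2 and between 15125 and 22917 in GFP samples. The transcription factor gene Irf8 had 1115 ± 79.4 in LCN2 and 653 ± 138 in GFP samples (SD, n = 4 each), without overlap (limma, adjusted p = 0.109), whereas Siglech, a marker of plasmacytoid dendritic cells, had 69.4 ± 18.7 in LCN2 and 133 ± 21.7 in GFP samples, without overlap in the other direction (limma, adjusted p = 0.142). The part of dendritic cells in the Itgax values was not tested. Osteoclasts share Atp6v0d2 and Ctsk with these macrophages. Of the 6 osteoclast markers tested, 5 were above 0 with a median of 0.10. Summed over all 7 listed, the normalized count was between 1726 and 2580 in LCN2 and between 1847 and 2629 in GFP samples. Ocstamp, needed for cell fusion, had 20.8 ± 5.80 in LCN2 and 6.63 ± 1.38 in GFP samples, a log2 difference of 1.50 ± 0.29 without overlap that did not pass (limma, adjusted p = 0.108). Dcstamp, its partner in fusion, had 18.6 ± 11.5 in LCN2 and 5.51 ± 4.18 in GFP samples. Both fusion genes were low, with GFP means under 10, the mean over all samples that the filter asks for. The receptor gene Calcr did not pass the filter.

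Some marker lists of other cells had medians away from 0 in gonadal fat. The part of any of these cells in the values of the 10 genes was not tested. All 10 skeletal muscle markers were above 0 (median 1.78), at summed counts of 2159.9 to 63586 in LCN2 and 1180.4 to 3579 in GFP samples. All 8 hepatocyte markers were above 0 (median 1.35), at 2131 to 46248 in LCN2 and 2130.4 to 16575 in GFP samples. All 9 tested mesothelial and epithelial markers were below 0 (median -1.13), at 2644 to 6453 in LCN2 and 6011 to 12693 in GFP samples. Proliferation markers were above 0 in 8 of 8 (median 1.24), at 979 to 2309.6 in LCN2 and 467 to 781 in GFP samples, groups that do not overlap. In each list the genes with the smallest p were Acta1 (1.80 ± 0.59) and Mb (2.32 ± 1.05) for muscle, Serpina1a (1.56 ± 0.85) and Ttr (1.60 ± 1.24) for hepatocytes, Wt1 (-1.27 ± 0.25) and Upk3b (-1.50 ± 0.30) for mesothelium, and Cenpe (1.21 ± 0.22) and Cdk1 (1.31 ± 0.24) for proliferation. Fibroblast markers were above 0 in 5 of 10 (median 0.10), with Dpp4 at -0.71 ± 0.25 and Col1a1 at 0.86 ± 0.31, and lymphocyte markers in 4 of 12 (median -0.05), with Ighd at 0.72 ± 0.29 and Cd8a at 0.59 ± 0.44. No gene of these 6 lists passed over all genes (limma, smallest adjusted p = 0.099).

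In subcutaneous fat the values are rlog, a log2 scale on which low genes are drawn towards their mean, so differences of low genes are understated. Mmp12 had 7.26, 8.10, 8.15 and 8.59 in LCN2 replicates 1 to 4, against 6.86, 6.25, 6.63 and 7.20 in GFP replicates 1 to 4. All LCN2 samples were above all GFP samples, with LCN2 replicate 1 just over GFP replicate 4. The difference was 1.29 ± 0.30 (SE), with a 95% interval from 0.62 to 1.97. It did not pass (limma, adjusted p = 0.308, unadjusted p = 0.00215), and the adjusted p ran from 0.0557 to 0.904 over the alternatives. Without the lymph node libraries (GFP replicates 1 and 2) the difference was 1.11 ± 0.35.

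Atp6v0d2 had 5.87, 6.10, 6.08 and 6.27 in LCN2 replicates 1 to 4, against 5.34, 5.54, 5.49 and 5.47 in GFP replicates 1 to 4. The 4 GFP samples lay close together and all below the LCN2 samples. The difference was 0.62 ± 0.09 (SE), with an interval from 0.41 to 0.84, and its unadjusted p of 0.000134 ranked 3 among 20302 genes. It did not pass over all genes (limma, adjusted p = 0.308), and was 0.60 ± 0.12 without the lymph node libraries. Ctsk had 10.60, 10.16, 10.53 and 10.69 in LCN2 replicates 1 to 4, against 9.43, 10.59, 10.57 and 10.54 in GFP replicates 1 to 4. Apart from the low GFP replicate 1, the GFP samples lay within the range of the LCN2 samples. The difference of 0.21 ± 0.26 (limma, adjusted p = 0.718) became -0.06 ± 0.14 without the lymph node libraries. Fabp5 had 11.51, 11.99, 12.25 and 11.93 in LCN2 replicates 1 to 4, against 12.05, 11.68, 11.97 and 12.13 in GFP replicates 1 to 4, a difference of -0.04 ± 0.16 (limma, adjusted p = 0.928).

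Trem2 had 6.00, 6.13, 6.02 and 6.45 in LCN2 replicates 1 to 4, against 5.56, 5.97, 5.66 and 6.01 in GFP replicates 1 to 4. LCN2 replicates 2, 3 and 4 lay above the highest GFP sample and LCN2 replicate 1 just below it. The difference was 0.35 ± 0.14 (SE), with an interval from 0.03 to 0.67 (limma, adjusted p = 0.335, unadjusted p = 0.0349). Gpnmb had 9.44, 9.14, 9.29 and 9.77 in LCN2 replicates 1 to 4, against 8.63, 9.37, 9.00 and 9.35 in GFP replicates 1 to 4, a difference of 0.32 ± 0.19 with an interval from -0.12 to 0.76 (limma, adjusted p = 0.463). GFP replicate 1 was the lowest sample for both genes and LCN2 replicate 4 the highest. The difference of Gpnmb was 0.17 ± 0.16 without GFP replicate 1 and 0.20 ± 0.19 without LCN2 replicate 4. LCN2 replicate 4, the LCN2 library with the most lymph node transcripts, was also highest for Mmp12 and Atp6v0d2. Without it the differences were 1.10 ± 0.29 for Mmp12, 0.56 ± 0.09 for Atp6v0d2 and 0.25 ± 0.13 for Trem2.

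Itgax did not separate the groups in this depot, at 8.34, 8.38, 8.52 and 8.38 in LCN2 replicates 1 to 4 and 8.77, 8.08, 7.97 and 8.39 in GFP replicates 1 to 4. The highest value stood in GFP replicate 1, the library with the most lymph node transcripts. The difference was 0.10 ± 0.16 (limma, adjusted p = 0.783), and 0.23 ± 0.13 without the lymph node libraries. Cd9 had 11.50, 11.12, 10.94 and 11.28 in LCN2 replicates 1 to 4, against 10.77, 11.23, 11.45 and 11.33 in GFP replicates 1 to 4. Its difference was 0.02 ± 0.16 (limma, adjusted p = 0.973), and -0.18 ± 0.15 without the lymph node libraries.

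Lgals3 had 10.99, 11.35, 11.61 and 11.24 in LCN2 replicates 1 to 4, against 10.84, 11.07, 11.30 and 10.77 in GFP replicates 1 to 4, with overlap. Its difference was 0.31 ± 0.15, with an interval from -0.05 to 0.66 (limma, adjusted p = 0.400). Spp1 had 5.21, 5.01, 4.98 and 5.13 in LCN2 replicates 1 to 4, against 5.03, 5.02, 5.14 and 5.03 in GFP replicates 1 to 4. It hardly varied on this scale, with a difference of 0.03 ± 0.07 (limma, adjusted p = 0.861).

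**Figure D2:**
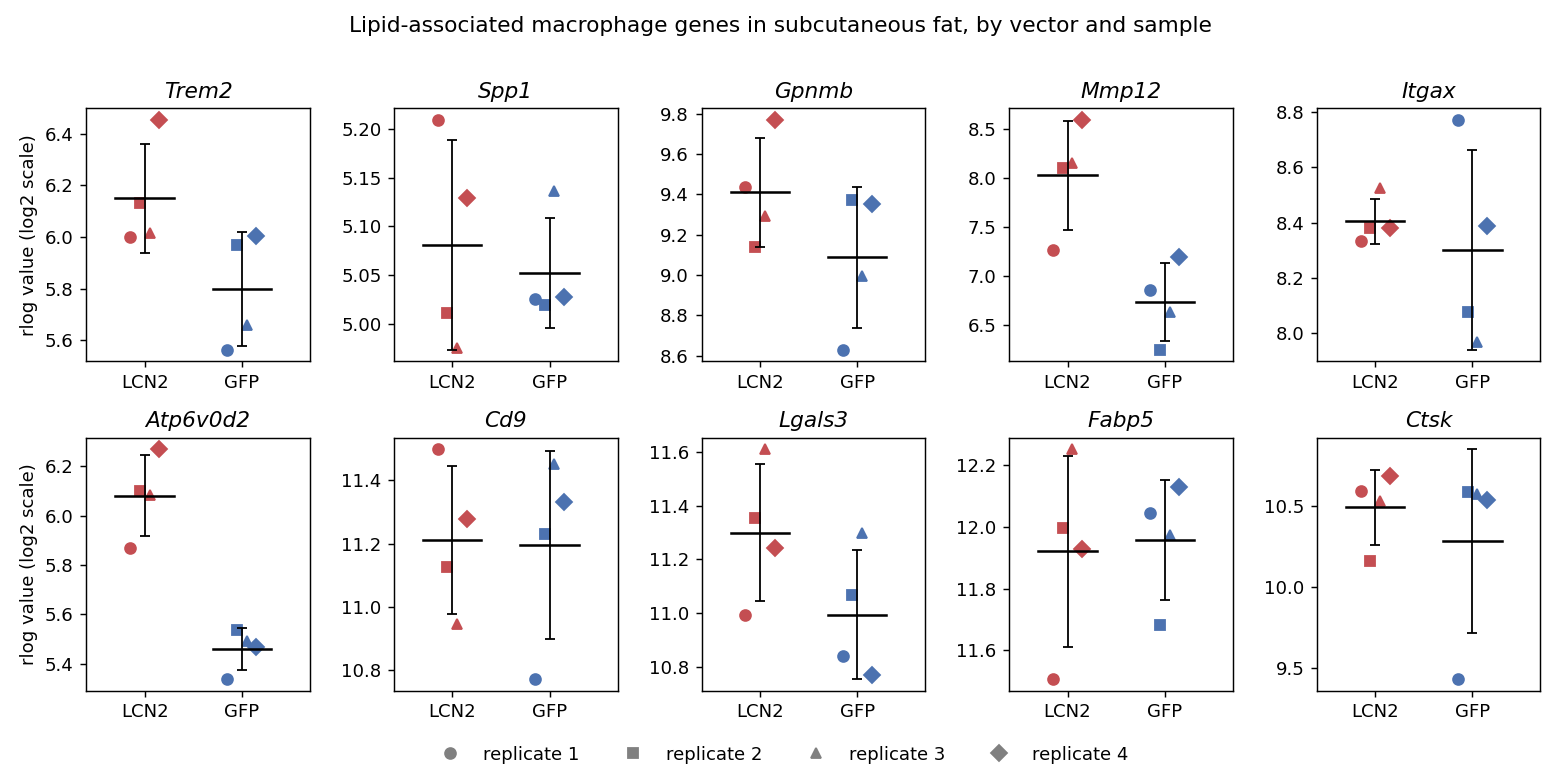
Rlog value of each of the 10 genes in subcutaneous fat, in 4 LCN2 samples (red, left) and 4 GFP samples (blue, right), with a symbol per replicate number, the mean as a line and its SD as a bar. For Mmp12 and Atp6v0d2 every LCN2 sample is above every GFP sample, and GFP replicate 1 is the low sample for Ctsk and the high one for Itgax.

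None of the 10 genes was called in subcutaneous fat, where 0.0% of the 20302 genes tested were called (limma). At an unadjusted p under 0.05 there were 3 of the 10 (Atp6v0d2, Mmp12 and Trem2), against 14.0% of all genes. The difference was above 0 for 9 of the 10 genes, with a median of 0.26, and for 49.8% of all genes, with a median of -0.00. All LCN2 samples lay above all GFP samples for 2 of the 10, against 3.81% of all genes, and below them for 0 of the 10, against 3.27%. The mean rlog over the 10 genes was between 8.67 and 8.97 in LCN2 and between 8.33 and 8.62 in GFP samples, with the lymph node libraries GFP replicates 1 and 2 lowest at 8.33 and 8.48.

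General macrophage markers averaged 10.02 in each group of subcutaneous fat. The lymph node libraries, GFP replicates 1 and 2, had marker means of 10.16 and 10.21, against 9.91 and 9.82 in GFP replicates 3 and 4. The part of lymph node cells in these values was not tested, so equal group means do not show equal macrophage content. Of the 18 markers, 12 were above 0 with a median of 0.11. Their mean rlog was between 9.78 and 10.27 in LCN2 and between 9.82 and 10.21 in GFP samples. Set against that mean, Mmp12 was at -3.01, -1.67, -1.93 and -1.38 in LCN2 replicates 1 to 4, and at -3.30, -3.96, -3.27 and -2.62 in GFP replicates 1 to 4. LCN2 replicate 1, which had the highest marker mean, then lay within the range of the GFP samples, while the group means still differed by 1.29. Atp6v0d2 was at -4.40, -3.67, -3.99 and -3.71 in LCN2 replicates 1 to 4, and at -4.82, -4.67, -4.41 and -4.35 in GFP replicates 1 to 4, and overlapped only through LCN2 replicate 1. With the marker mean as a covariate the differences were 1.29 ± 0.24 for Mmp12, 0.62 ± 0.09 for Atp6v0d2 and 0.35 ± 0.14 for Trem2, and none was called (limma, smallest adjusted p = 0.154).

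**Figure D3:**
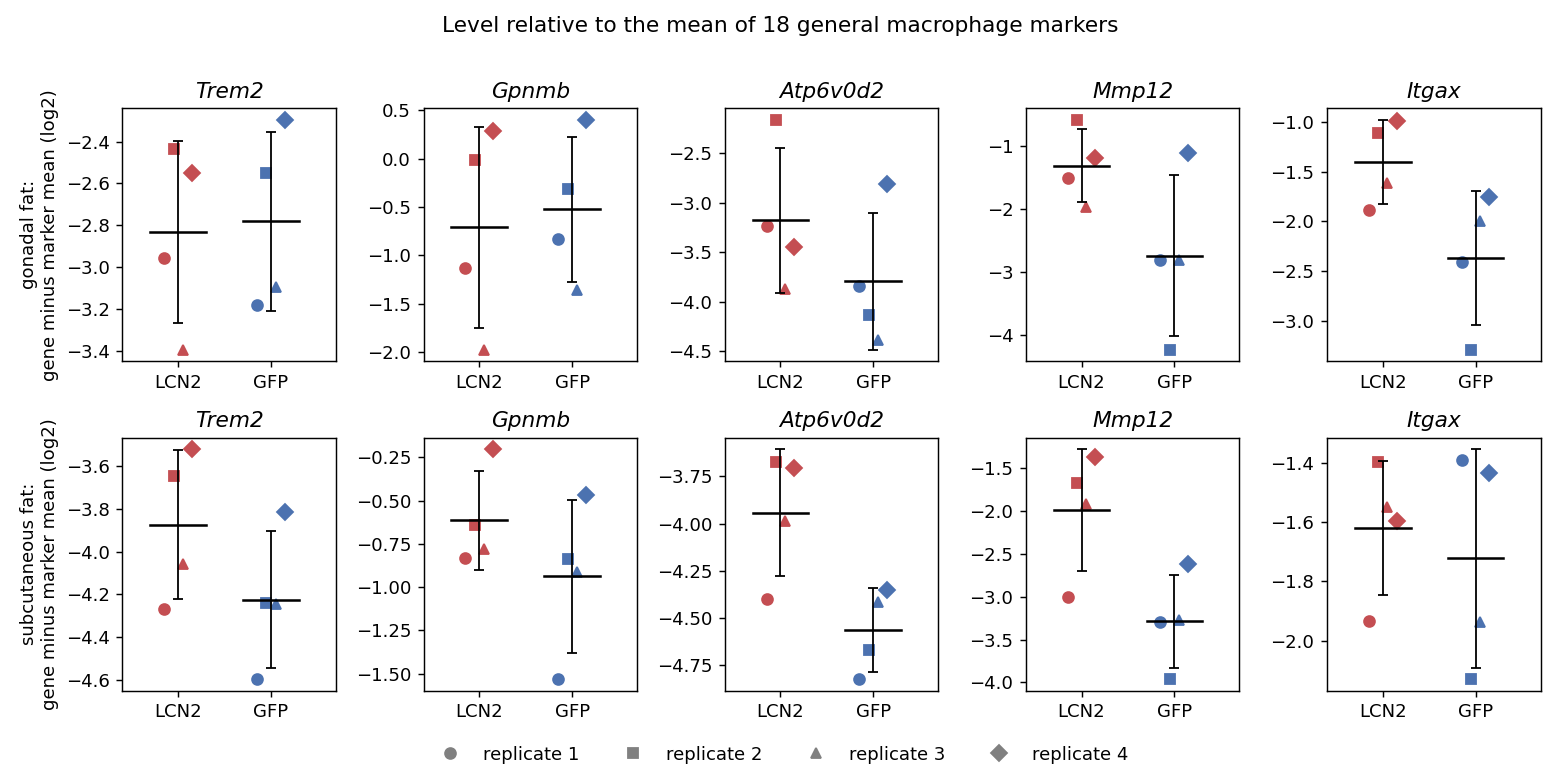
Level of 5 genes minus the mean of 18 general macrophage markers, on the log2 scale, in gonadal (top) and subcutaneous fat (bottom), with LCN2 samples on the left in red, GFP samples on the right in blue, and mean ± SD in black. Group means differ by 1.43 for Mmp12 and 0.97 for Itgax in gonadal fat, and by 1.29 for Mmp12 and 0.10 for Itgax in subcutaneous fat.

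In subcutaneous fat all 12 lymph node and lymphocyte markers were below 0 (median -1.41), with a mean rlog of 5.94 to 8.00 in LCN2 and 6.19 to 10.49 in GFP samples, led by Ccl21a at -2.00 ± 0.82 and Cd3g at -1.80 ± 0.78. Dendritic cell markers were below 0 in 7 of 11 (median -0.24), at 7.77 to 8.18 in LCN2 and 7.77 to 9.13 in GFP samples, with Siglech at -0.84 ± 0.39 and Ccr7, the lymph node homing receptor gene, at -1.60 ± 0.90. Fibroblast markers were above 0 in 9 of 10 (median 0.36), at 12.47 to 12.95 in LCN2 and 11.84 to 12.74 in GFP samples, led by Dpt at 0.54 ± 0.16 and the fibrillin gene Fbn1 at 0.89 ± 0.30. The part of these cells in the values of Itgax and Ctsk was not tested. Osteoclast markers were above 0 in 3 of 6 (median -0.01), with Dcstamp at 0.22 ± 0.09 and Car2 at -0.15 ± 0.10. All 8 hepatocyte markers were below 0 (median -0.69), led by Fgb at -1.13 ± 0.39 and Apoc3 at -0.57 ± 0.33. Muscle markers were below 0 in 8 of 10 (median -0.27), led by Myh1 at -0.37 ± 0.12 and Myh4 at -1.07 ± 0.50. Mesothelial and epithelial markers were below 0 in 6 of 8 (median -0.06), with Upk1b at -0.09 ± 0.06 and Lrrn4 at -0.17 ± 0.17, and proliferation markers were above 0 in 5 of 8 (median 0.03), with Cdk1 at 0.14 ± 0.19 and Top2a at -0.18 ± 0.33. No gene of these lists passed.

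**Figure D4:**
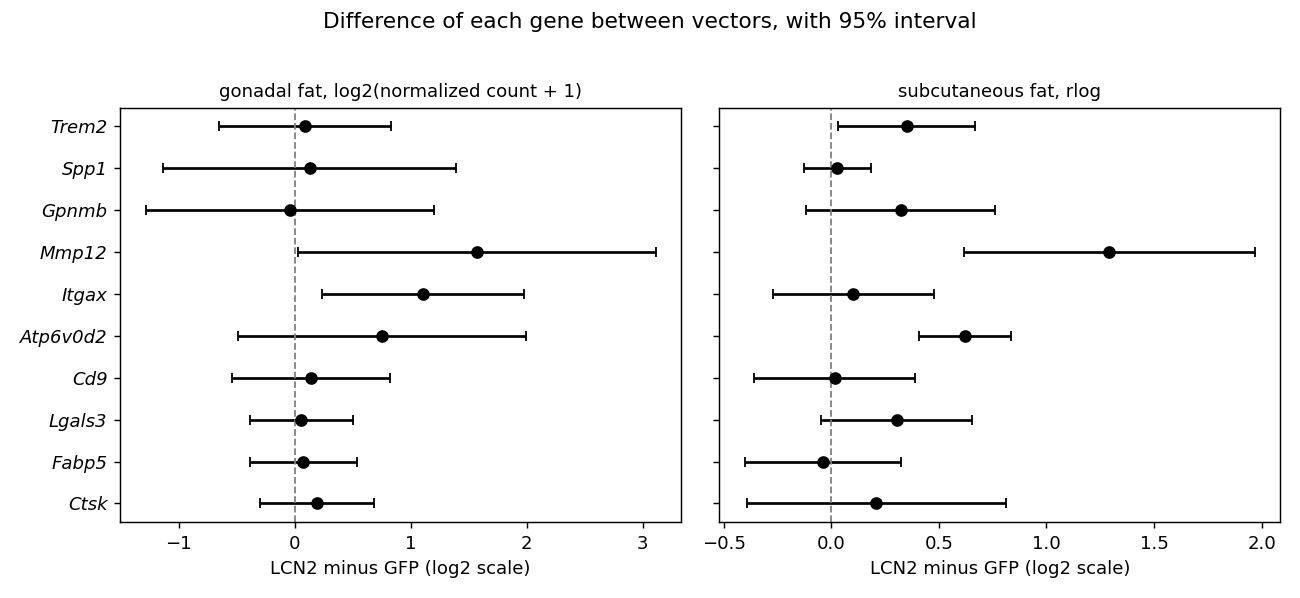
Difference of LCN2 minus GFP for each gene, with its 95% interval from limma, on log2(normalized count + 1) in gonadal fat (left) and on rlog in subcutaneous fat (right). The interval lies above 0 for Mmp12 and Itgax in gonadal fat and for Trem2, Mmp12 and Atp6v0d2 in subcutaneous fat, but no gene passed after adjustment over all genes.

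Side by side, the difference of Mmp12 was 1.57 ± 0.68 in gonadal and 1.29 ± 0.30 in subcutaneous fat, and that of Atp6v0d2 was 0.75 ± 0.55 in gonadal and 0.62 ± 0.09 in subcutaneous fat. Itgax stood at 1.11 ± 0.38 in gonadal and 0.10 ± 0.16 in subcutaneous fat, and Trem2 at 0.09 ± 0.33 in gonadal and 0.35 ± 0.14 in subcutaneous fat. The tables had been normalized separately and stand on different scales, so the difference between depots was not tested.

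Of 28 other genes of the lysosome and of lipid handling in macrophages, none passed in either depot. In gonadal fat 14 of 28 were above 0 with a median of 0.02. The protease gene Ctsl had a log2 difference of 0.41 ± 0.14 and the lysosomal tetraspanin gene Cd63 one of -0.38 ± 0.14. In subcutaneous fat 18 of 28 were above 0 with a median of 0.06, and the cathepsin genes Ctsl at 0.48 ± 0.14 and Ctsb at 0.37 ± 0.12 had the smallest p (limma, adjusted p = 0.308 each). For Ctsb all LCN2 samples lay above all GFP samples. Of 16 other subunit genes of the proton pump, 7 in gonadal fat were above 0 with a median of -0.01, led by Atp6v1b2 at 0.26 ± 0.09 without overlap and Atp6v1g1 at -0.21 ± 0.15. In subcutaneous fat 11 of 16 were above 0 with a median of 0.05, where Atp6v0d1, the widely used form of the subunit, had a difference of 0.19 ± 0.09 and Atp6v1g1 one of -0.14 ± 0.07.

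Genes that carry the TREM2 signal were above 0 in 9 of 9 in gonadal fat, with a median of 0.21. The groups overlapped, with a summed normalized count of 3074 to 4636 in LCN2 and 3223 to 4609 in GFP samples. Of the 9 genes, 0 had an unadjusted p under 0.05 (limma). The phospholipase gene Plcg2, at 0.36 ± 0.18, and the kinase gene Btk, at 0.30 ± 0.22, had the smallest p. In subcutaneous fat 7 of 9 were below 0 with a median of -0.33, led by the adaptor gene Hcst at -0.61 ± 0.37 and Vav1 at -0.68 ± 0.45. Both are also used by lymphocytes. The list had a mean rlog of 8.98 and 8.59 in GFP replicates 1 and 2, the lymph node libraries, against 7.69 to 8.22 in the other 6 samples. The part of lymph node cells in these values was not tested. Receptors of osteopontin and the integrin partners of CD11c were above 0 in 6 of 8 in gonadal fat (median 0.29), with the integrin gene Itgb5 at 0.52 ± 0.18 without overlap and the hyaluronan receptor gene Cd44 at 0.57 ± 0.27. In subcutaneous fat 4 of 8 were above 0 (median 0.01), and Itgb5 at 0.48 ± 0.10 and Itgb1 at 0.34 ± 0.10 had LCN2 samples all above GFP samples. No gene of these 4 lists passed in either depot, the smallest adjusted p by limma being 0.222 in gonadal and 0.308 in subcutaneous fat.

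Markers of resident macrophages were above 0 in 5 of 12 in gonadal fat (median -0.04), with Cbr2 at 0.48 ± 0.22 and Lyve1, a hyaluronan receptor gene, at -0.66 ± 0.33. In subcutaneous fat 10 of 12 were above 0 (median 0.27), with Cbr2 at 0.33 ± 0.13 and the lectin gene Mgl2 at 0.54 ± 0.23. Of the general macrophage markers, Cd14 had -0.37 ± 0.22 and Cx3cr1, the fractalkine receptor gene, 1.22 ± 0.73 in gonadal fat, and Itgam had 0.27 ± 0.10 and Fcer1g 0.20 ± 0.10 in subcutaneous fat. Adipocyte markers were above 0 in 2 of 10 in gonadal fat (median -0.15) and in 6 of 10 in subcutaneous fat (median 0.06). Among them the leptin gene Lep had 1.30 ± 0.23 in gonadal and 1.10 ± 0.20 in subcutaneous fat without overlap, and Cfd, the adipsin gene, had -0.84 ± 0.43 in gonadal and -0.46 ± 0.24 in subcutaneous fat. None of these genes passed, the smallest adjusted p by limma being 0.0964, for Lep in gonadal fat.

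Co-variation was measured over the 8 samples of a depot for each of the 45 pairs, with an exact permutation of the pairings. The pairs share 10 genes and the same 8 samples, and no share over all pairs of genes was computed. Counts of pairs are therefore descriptions. Over all genes the median r with a member was between -0.03 (Spp1) and 0.04 (Trem2) in gonadal fat. In subcutaneous fat it was between -0.05 (Cd9) and 0.03 (Itgax). In gonadal fat 40 of 45 Pearson r were above 0, with a median of 0.58, 10 pairs had an unadjusted p under 0.05, and 1 pair passed after Benjamini-Hochberg adjustment over the 45 pairs. That pair was Mmp12 and Itgax, with r = 0.96 (exact permutation p = 0.000521, adjusted p = 0.0234) and rho = 0.88 (exact permutation p = 0.00724, adjusted p = 0.0815). Without LCN2 replicate 2 and GFP replicate 2, the samples farthest from the median of Mmp12, r was 0.89, and with each group centred on its own mean it was 0.95. Mmp12 and Atp6v0d2 had r = 0.87 (exact permutation p = 0.00444, adjusted p = 0.0755) and rho = 0.88 (exact permutation p = 0.00724, adjusted p = 0.0815), with r = 0.89 without the same samples. Spp1 and Cd9 had r = 0.84 (exact permutation p = 0.0121, adjusted p = 0.108) and rho = 0.83 (exact permutation p = 0.0154, adjusted p = 0.138), and r = 0.80 without those samples. An r above 0.7 with Mmp12 was also found for 11.2% of all 19536 genes, and with Itgax for 10.5%.

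Trem2 and Gpnmb varied together across gonadal samples, with r = 0.88 (exact permutation p = 0.00503, adjusted p = 0.0755) and rho = 0.90 (exact permutation p = 0.00456, adjusted p = 0.0815), short of the threshold. Without LCN2 replicate 2 and GFP replicate 4 r was 0.69. Trem2 and Atp6v0d2 had r = 0.85 (exact permutation p = 0.0091, adjusted p = 0.102) and rho = 0.69 (exact permutation p = 0.0694, adjusted p = 0.267), and r = 0.61 without the same 2 samples. An r above 0.7 with Trem2 was found for 4.91% of all genes and for 3 of the other 9. Fabp5 ran the other way, with r = -0.59 against Trem2 and -0.61 against Gpnmb (exact permutation p = 0.123 and 0.103). Fabp5 and Lgals3 had an r above 0.7 with none of the other 9 genes, and with 2.24% and 0.916% of all genes.

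In subcutaneous fat 30 of 45 r were above 0, with a median of 0.26, and none passed after adjustment (smallest adjusted p = 0.0967 by exact permutation), with 8 at an unadjusted p under 0.05, among them Mmp12 and Atp6v0d2. Trem2 and Gpnmb had r = 0.89 (exact permutation p = 0.00645, adjusted p = 0.0967) but rho = 0.55 (exact permutation p = 0.171, adjusted p = 0.453). With each group centred on its own mean r was 0.86. Without LCN2 replicate 4 and GFP replicate 1, the samples farthest from the median of Trem2, r was 0.55. Leaving out such samples also narrows the range of Trem2, so this drop cannot tell whether the relation rests on them. Trem2 and Atp6v0d2 had r = 0.83 (exact permutation p = 0.00221, adjusted p = 0.0967) and rho = 0.86 (exact permutation p = 0.0107, adjusted p = 0.161), and r = 0.62 without the same 2 samples. The groups do not overlap for Atp6v0d2, so this pooled r takes in the difference between groups. With each group centred on its own mean it was 0.75. For Mmp12 and Atp6v0d2 no pooled r is given, because the groups do not overlap for either gene, and with 4 samples each no relation was tested within the groups.

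**Figure D5:**
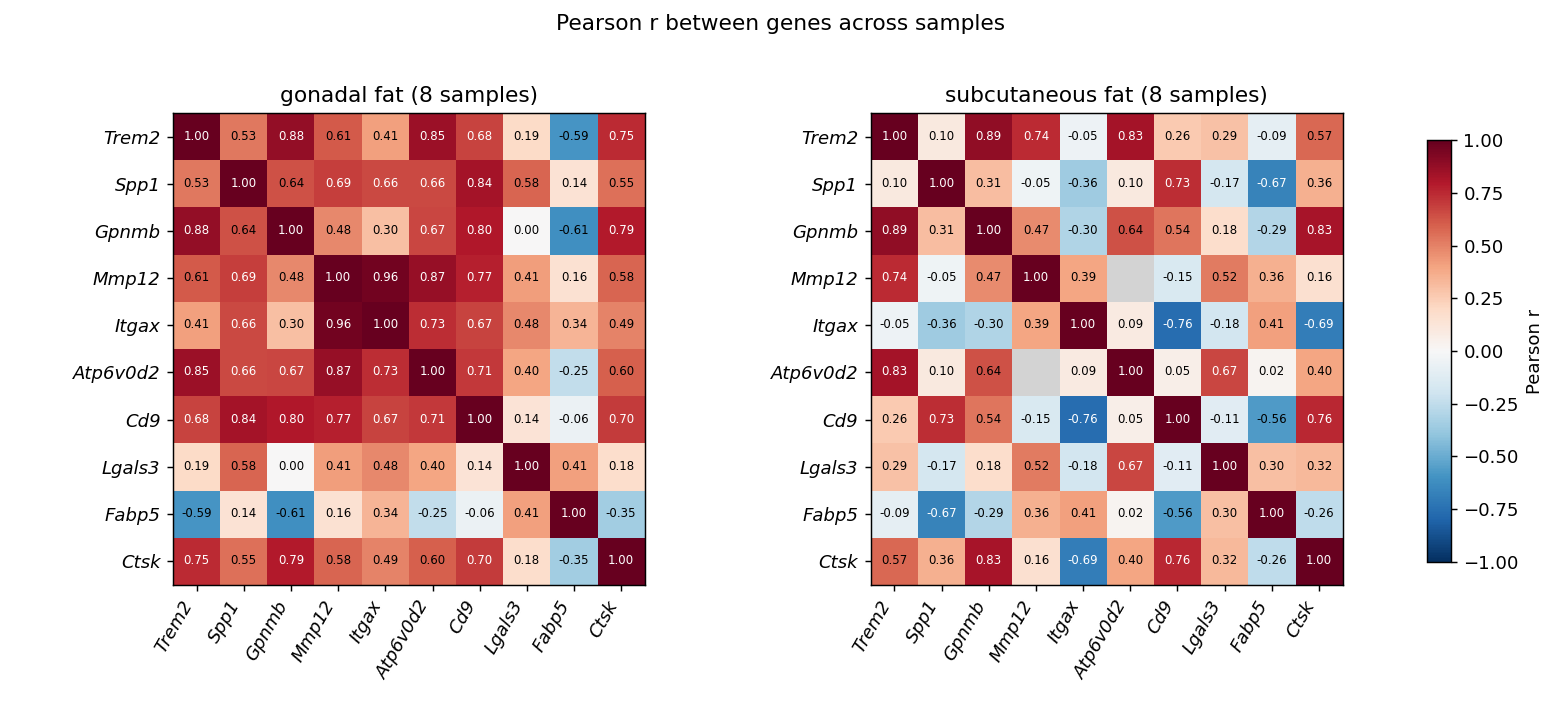
Pearson r between the 10 genes over the 8 samples of gonadal fat (left) and of subcutaneous fat (right), each cell being a pair. The gray cell is Mmp12 with Atp6v0d2, whose groups do not overlap. Mmp12 with Itgax at 0.96 is the highest r in gonadal fat, and the same pair has 0.39 in subcutaneous fat.

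Among 11788 named genes of gonadal fat with a mean normalized count of at least 100, those most like Trem2 over the 8 samples were Mvb12a (r = 0.96), Birc3 (0.96), Phf8 (0.96), Frk (0.95) and Usp53 (0.95). Without the 2 samples farthest from the median of Trem2 their r was between 0.82 and 0.95. In subcutaneous fat, among 11539 named genes with a mean rlog of at least 7, they were Rbms2 (0.92), Intu (0.92), Alpk1 (0.92), Sbsn (0.92) and Wasl (0.90), and between 0.66 and 0.92 without those 2 samples. These r are descriptions, since they are the highest of many. None of the 5 genes was the same in both depots, and none of the 10 differed between the vectors by the test over all genes (limma, adjusted p of 0.329 or more).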

How the data were processed

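Whole gonadal and subcutaneous fat was sequenced after mRNA library preparation with a stranded kit, per the labels' protocols. HISAT2, DESeq2, GRCm38 and mm10 are named in the submitters' processing notes, without versions. How reads were counted, and against which annotation, is not given in the sources used here. The gonadal table deposited by the authors holds a signal per gene, namely counts scaled by a size factor for each sample. When each value was divided by the worth of 1 read, 100% were whole within 1e-06, and these reads served the count tests. A floor of 3 reads equals 0.0699 to 0.0853 CPM and covers counting error only. The subcutaneous table deposited by the authors holds rlog values on a log2 scale, whose depth is unknown.

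Symbols came from a gene name table (99.2% of genes matched), and coordinates are GRCm38. LCN2 was compared with GFP within each depot by limma 3.58.1 (R 4.3.3, variance trend on intensity), on log2(normalized count + 1) for genes with a mean of at least 10, and on rlog for genes with a mean of at least 3. Adjusted p-values are Benjamini-Hochberg over all genes tested, with a threshold of 0.05, and the fits were tested on simulated data. Fold changes of low genes are understated. Alternatives on the recovered reads used DESeq2 1.42.0 and edgeR 4.0.16. The members, the 15 other lists, the motifs and the alternatives were chosen with earlier results of these data known. Named genes were the 10 members, the 2 smallest p of each list where none passed, and the 5 nearest to Trem2. Nothing in the labels says that replicates came from separate mice, so the p-values rest on the spread between samples, which may be technical.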

Additional observations from a re-analysis of the deposited data

Results flagged for a closer look

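In 2 groups, 1 sample lay far from the other 3 samples of their group on the log2 scale. For Ctsk in subcutaneous fat, GFP replicate 1 was lowest, and its gap to the nearest sample took a share of 0.956 of the group's whole range (10.59, 10.57 and 10.54 in the other 3 samples and 9.43 in this one). For Spp1 in subcutaneous fat, GFP replicate 3 was highest with a share of 0.933, over values that differ by little (5.14 against 5.02 to 5.03). Both shares are above Dixon's 95% limit for 4 samples. In all 40 groups were examined, and chance passes that limit in about 1 of 20 groups.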

How the results depend on the processing

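Over 20 alternatives in gonadal and 16 in subcutaneous fat, each called 0 of the 10 genes (limma, DESeq2 or edgeR). At an unadjusted p under 0.05 there were 0 to 4 of the 10 in gonadal and 2 to 4 in subcutaneous fat. In the main fits by limma such a p was held by 14.8% of all gonadal and 14.0% of all subcutaneous genes. The main subcutaneous fit called 0.0% of all genes. Replicate numbers did not pair the samples (r of same-numbered deviations from -0.36 to 0.42), and the replicate block called 0 of 10 in each depot and 0 genes overall in gonadal fat. Over all gonadal genes, calls numbered 20, but 818 by DESeq2, 7 by edgeR, 13 with TMM scaling (chosen after seeing the data), 6 with library totals, 6 without the intensity trend, 71 with sample weights, 0 without LCN2 replicate 4 and GFP replicate 2, and between 1 and 66 with 1 sample left out (1 without LCN2 replicate 3 and without GFP replicates 2 or 3, and 66 without GFP replicate 4), and 53 with the macrophage covariate. Mmp12 and Itgax (gonadal) and Mmp12, Atp6v0d2 and Trem2 (subcutaneous) kept their sign throughout.

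Signs turned only for genes whose intervals span 0. In gonadal fat this was Trem2 with the macrophage covariate (-0.062), Spp1, Cd9 and Fabp5 without LCN2 replicate 4 and GFP replicate 2 (-0.30, -0.16 and -0.083), and Gpnmb and Fabp5 with sample weights (0.42 and -0.028). In subcutaneous fat it was Spp1, Cd9 and Ctsk without GFP replicates 1 and 2 (-0.00061, -0.18 and -0.062) and Fabp5 with sample weights (0.081). Leaving out 1 sample gave, in gonadal fat, -0.11 to 0.35 for Trem2, -0.25 to 0.48 for Spp1, -0.37 to 0.39 for Gpnmb, -0.059 to 0.41 for Cd9, -0.10 to 0.17 for Lgals3 and -0.090 to 0.20 for Fabp5. In subcutaneous fat it gave -0.014 to 0.064 for Spp1, -0.0074 to 0.26 for Itgax, -0.13 to 0.10 for Cd9, -0.15 to 0.10 for Fabp5 and -0.073 to 0.32 for Ctsk. The cause was not tested.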

Other observations

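The LCN2 samples with the most Lcn2 were not those with the most Mmp12 in gonadal fat. LCN2 replicates 3 and 4 had Lcn2 normalized counts of 522 and 481 and Mmp12 counts of 271 and 346, while LCN2 replicates 1 and 2 had 186 and 189 of Lcn2 and 496 and 838 of Mmp12. In subcutaneous fat LCN2 replicate 4 had the highest rlog of both genes, 9.82 for Lcn2 and 8.59 for Mmp12. With 4 samples per group no relation was tested.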
